A study of Homo sapiens with 6 samples.

Results

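The annotation listed 386 final exons that stood alone inside an intron, out of 21383 distinct final exons (1.81%), in 282 genes. They were selected on position only. The 5' edge of such an exon, its acceptor, is the edge of no internal exon listed under the same gene name. The whole exon lies inside 1 intron of the gene's reference isoform, which is the isoform with the most exons. Among the 12462 genes with at least 1 intron, 282 held such an exon (2.26%, 95% Wilson interval 2.02 to 2.54). That share is set by the rule and is the background for the gene lists described further on. The intervals in this text cover counting error only, and exons of the same gene are not independent.

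Poly(A)-selected RNA of 6 libraries came from U-87 MG cells, an established cell line from a human glioma, with 3 libraries in each group. The control group received DMSO, the vehicle, at 10 ul per 10 ml of medium, and the other group received EPZ015666 at 10 uM, a compound that inhibits PRMT5, an arginine methyltransferase, with 72 h of incubation. The exon annotation covers both groups at once, with positions in hg19, and holds 0 columns of values per library. No level, depth or replicate error can therefore be given, EPZ015666 was not compared with DMSO, and the identity of the cells was not checked against marker levels.

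A transcript ends where its precursor is cleaved and polyadenylated, usually a short distance after the hexamer AATAAA or a close variant. An intron can hold a complete set of such signals. If splicing joins the upstream donor to an acceptor within that intron, and cleavage follows before the next donor, the transcript ends in a separate exon that the longer transcript removes as part of the intron. Such exons often bring their own stop codon. The resulting proteins keep the N-terminal part of the longer protein and have another C-terminal tail, which is how several membrane proteins gain a secreted form.

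Exons of known short forms show what these structures look like at the junction. The lines below give the last 15 bases of the exon before the junction in lower case and, in capitals, the coding bases of the intronic final exon through its stop codon. They are shown because the capitals are the sequence that replaces the rest of the protein. The sequences were read from GENCODE v29 transcripts (GRCh38) that were matched to the listed exons by length. HGF, RUNX1, PSIP1 and TFPI were picked after their values were seen.
HGF: caattaaaacatgcgAGACATAA
RUNX1: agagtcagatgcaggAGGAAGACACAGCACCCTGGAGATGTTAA
PSIP1, nearer acceptor: aatggaaactgagcaTTTTGCTCTGTAA
PSIP1, farther acceptor: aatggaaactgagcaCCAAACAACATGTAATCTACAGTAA
TFPI: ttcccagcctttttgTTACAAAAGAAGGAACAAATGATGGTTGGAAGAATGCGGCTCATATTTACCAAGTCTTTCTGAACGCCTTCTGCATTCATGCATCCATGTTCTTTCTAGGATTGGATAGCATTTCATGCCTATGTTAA

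Residue counts in this text are those of the matched reference transcript. The match covers the last intron and the exon before it, so the upstream part of that transcript can differ from the listed isoform. Among genes named here, no isoform listed with the exon held the whole coding part in RUNX1, EHMT1, LAMA4, NCAM1, SON, ADAM12, ANTXR1, PDLIM5 and PDLIM7. The same held for the 405-base exon of PPP2R5C. A listed isoform did hold it in HGF, TFPI, PSIP1, PML, NSD1, ING3, ERCC2, MRE11A, PMS1, CWC27 and NRP2. HGF encodes hepatocyte growth factor, the ligand of the MET receptor. Its listed intronic exon (hg19, chr7:81372008-81372265, minus strand) had 258 bases in the 13573-base intron 7 of 16. The capitals hold 5 coding bases before the stop codon, and the reference protein has 290 residues where the longest of the gene has 728. RUNX1 encodes a transcription factor of blood formation whose short form keeps the DNA-binding part. Its exon (chr21:36193577-36193993, minus strand) added 26 coding bases, and the matched protein had 250 residues, against 480. TFPI, an inhibitor of the tissue factor pathway of coagulation, has a short form that is anchored to the membrane by a lipid. Its exon (chr2:188343305-188343530, minus strand) added 125 coding bases to reach 251 residues, against 304.

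PSIP1, a chromatin-bound coactivator, had 3 members in its 2638-base intron 10 of 15. They began 1320, 1400 and 1455 bases after the donor and shared 1 end, so they were 675, 595 and 540 bases long. The first ended a reference protein of 329 residues and the next a protein of 333, against 530 for the longest. The printed tails begin at the first and the next of these acceptors, which lie 80 bases apart, after the same upstream exon.

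The 386 exons used 335 acceptors and 341 ends in 289 introns. Most genes, 213, held 1 such exon, 47 held 2, 14 held 3, 6 held 4, 1 held 5 and 1 held 8. Of the host introns, 249 had 1 acceptor, 34 had 2 and 6 had 3. In all 386, the listed isoform used the donor of the host intron and the same internal exons upstream as the reference isoform. First exons were not compared.

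The intronic exons lay toward the donor side of their introns. Place was measured as the distance from donor to acceptor divided by the room that the exon has in its intron, so that 0 is next to the donor and 1 next to the intron's own acceptor. The median place was 0.179 (quartiles 0.0596 and 0.459). In 297 of 386 exons the place was below 0.5 (76.9%, interval 72.5 to 80.9). In 203 it was below 0.2 (52.6%), while in 32 it was above 0.8 (8.29%). No test was made, since members were selected on position and several share an intron.

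In bases, the median distance from the donor to the new acceptor was 1341.5 (quartiles 431 and 4585, range 28 to 80249). Acceptors within 1000 bases of the donor made up 43.0% (166 of 386), and those within 5000 bases 76.4% (295). Counted per exon, the median distance grew with the intron. In 118 exons in introns under 5000 bases the median distance was 454.5 bases and the median place 0.322. In 143 exons in introns of 5000 to 20000 bases these were 1492 bases and 0.158. From 20000 to 50000 bases (68 exons) they were 4451 bases and 0.152. At 50000 bases or more (57 exons) they were 18642 bases and 0.159. Of these 57 exons, 8 lay in the same GABRG3 intron and 5 in the same SLC39A11 intron. The median of 18642 bases is itself the distance of a GABRG3 acceptor that was listed with 4 ends. Per exon, the median place was thus nearly the same in the 3 longer classes, while the median distance rose. The distance is bounded by the intron length, and medians per acceptor or per intron were not taken within the classes.

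**Figure D1:**
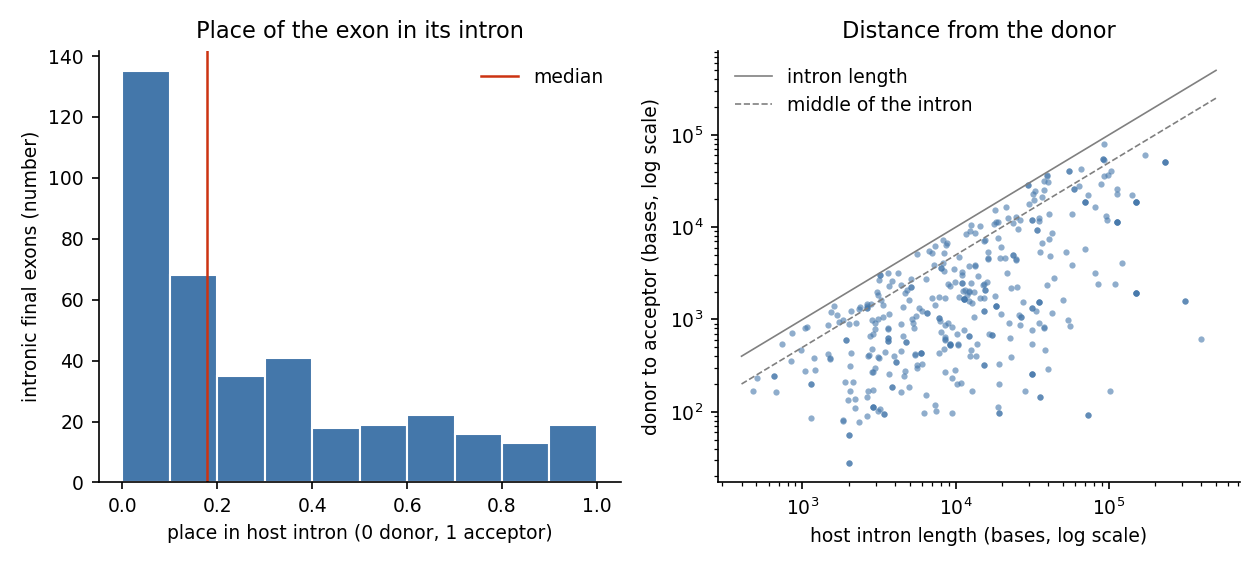
Left, number of the 386 intronic final exons by place in the host intron, from 0 at the donor to 1 at the intron's acceptor, with the median of 0.179 as a red line. Right, distance from donor to acceptor against host intron length, both in bases on log scales, 1 point per exon, with the intron length as a solid line and its middle as a dashed line. Most points lie below the dashed line at every intron length.

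Host introns were long. Their median was 10531 bases over the 289 introns (quartiles 3639 and 26369), while the 3959 remaining introns of these genes had a median of 2021. In 116 of 289 cases (40.1%) the host intron was the longest of its gene. Of the 289, 283 lay in genes with 2 or more introns, and a sole intron is always the longest. Containment in an intron favours long introns, so this length is partly set by the rule. Introns that held an extending end, meaning a final exon that starts at the acceptor of an internal exon and runs on into the intron, had a median of 4192 bases (1977 introns). Host genes had a median of 13 introns, against 8 for all genes with introns, and a gene with more introns has more places for a member. The shortest host introns were 476 bases in C14orf159, a mitochondrial protein gene, 505 in NAP1L1, a histone chaperone gene, and 651 in RP11-264B17.3. The longest were 397263 bases in SMYD3, a lysine methyltransferase gene, 313977 in CAMKMT, which encodes a calmodulin methyltransferase, and 231454 in CENPP, a centromere protein gene.

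The exons in those longest introns lay at very different depths. In SMYD3 the acceptor was 615 bases from the donor (place 0.00155) and in CAMKMT 1579 and 1583 bases, whereas in CENPP it was 50584 bases (place 0.246 to 0.348). Along the transcript, 107 of the 386 lay in the last intron (27.7%, interval 23.5 to 32.4) and 9 in the first (2.33%). A first-intron member needs an isoform of 2 exons. The median member had 62.5% of the reference isoform's exons upstream (quartiles 38.3 and 81.3).

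The bounds of containment were met closely on both sides. TARDBP, which encodes the RNA-binding protein TDP-43, and KB-1507C5.2 had exons that ended 20 bases before the end of their intron, and B4GALNT1, a ganglioside synthase gene, had one ending 33 bases before it. On the other side of the bound, the exon with its own acceptor ran past the intron by 81 bases in MAZ, 86 in TBCA and 106 in COX11. There were 174 such exons that began inside an intron at their own acceptor and ran past it, and 115 of these ended in a later intron. These 6 genes are named only for that bound.

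The median intronic final exon was shorter than the median of the other kinds. Its length was 427.5 bases (quartiles 245 and 815, range 40 to 94845). The 2300 extending ends had a median of 905.5 bases, which includes the internal exon they extend. The 12462 last exons of the reference isoforms had a median of 818 bases, and those of the 282 host genes 1016. Within a gene, 226 of 386 intronic exons were shorter than the reference isoform's last exon (58.5%, interval 53.6 to 63.4). An exon that must fit inside an intron is bounded in length, which the reference last exons are not.

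**Figure D2:**
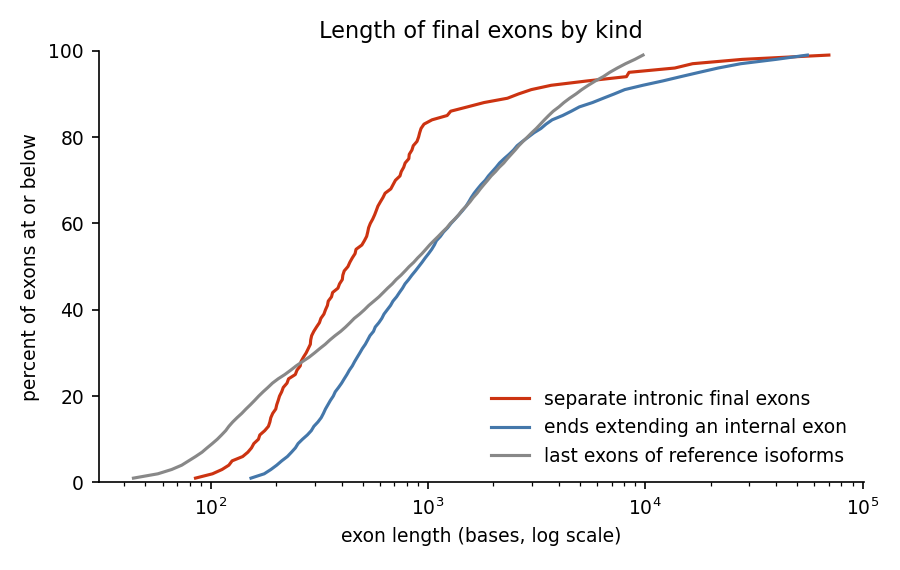
Percent of final exons at or below each length in bases (log scale), for the 386 separate intronic final exons (red), the 2300 ends extending an internal exon (blue) and the 12462 last exons of reference isoforms (grey). The red curve is the steepest and crosses 50% at 427.5 bases, left of the others, while the grey curve has more exons at the short end, with a lower quartile of 219 bases.

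The shortest were 40 bases in TAOK2, a stress-activated kinase gene, 51 in NEK11, a cell cycle kinase gene, and 71 in ADCY7, an adenylyl cyclase gene. The longest were in GABRG3, a subunit of the GABA-A receptor, with 94845 and 85304 bases, and in CENPP with 86270. The TAOK2 exon and this CENPP exon matched no reference last exon. They overlapped exons of HIRIP3 and ECM2 on the other strand. Of the matched members, 53 were longer than the reference exon, as in SLC39A11 with 16515 bases against 321. Whether the longest are single exons was not tested. There were 66 exons under 200 bases, 62 of 1000 or more and 29 of 5000 or more. GABRG3 held most members of any gene. Its 8 exons combined 2 acceptors, 1930 and 18642 bases into the 149086-base intron 6, with 4 ends. They ranged from 191 to 94845 bases, and none of the 8 matched a reference last exon.

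Full combinations of acceptors and ends also occurred in 4 other introns, each with 2 acceptors and 2 ends giving 4 exons. These were in ABCB8, a mitochondrial ABC transporter gene, CENPN, a kinetochore gene, ING3, a subunit of a histone acetyltransferase complex, and PRKACB, a catalytic subunit of protein kinase A. Altogether 15 introns had 2 or more acceptors and 2 or more ends, and 5 held every combination. In CENPN the acceptors were only 28 and 56 bases after the donor, and these 4 exons were the only ones with a gap under 60 bases. Whether so short a gap is spliced was not tested, and none of the 4 matched a reference exon.

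SLC39A11, a zinc transporter gene, had 5 exons in its 112914-base intron 8, at 3 acceptors, from 317 to 16515 bases long. TPGS2, a subunit of the tubulin polyglutamylase complex, had 3 ends after 1 acceptor at 1398 bases (978, 2944 and 8357 bases long) and a further exon of 506 bases at 11369 bases. PDCD2, a ribosome assembly chaperone gene, had 2 exons in each of 2 introns. In intron 6 they shared an acceptor 200 bases from the donor and were 154 and 174 bases long. In intron 4 they shared an end and were 405 and 520 bases long. B9D1, a gene of the ciliary transition zone, had exons of 223 and 227 bases in intron 6 and of 291 in intron 7. C14orf159 had exons of 198 and 253 bases in intron 6 and of 248 in its 476-base intron 17.

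**Figure D3:**
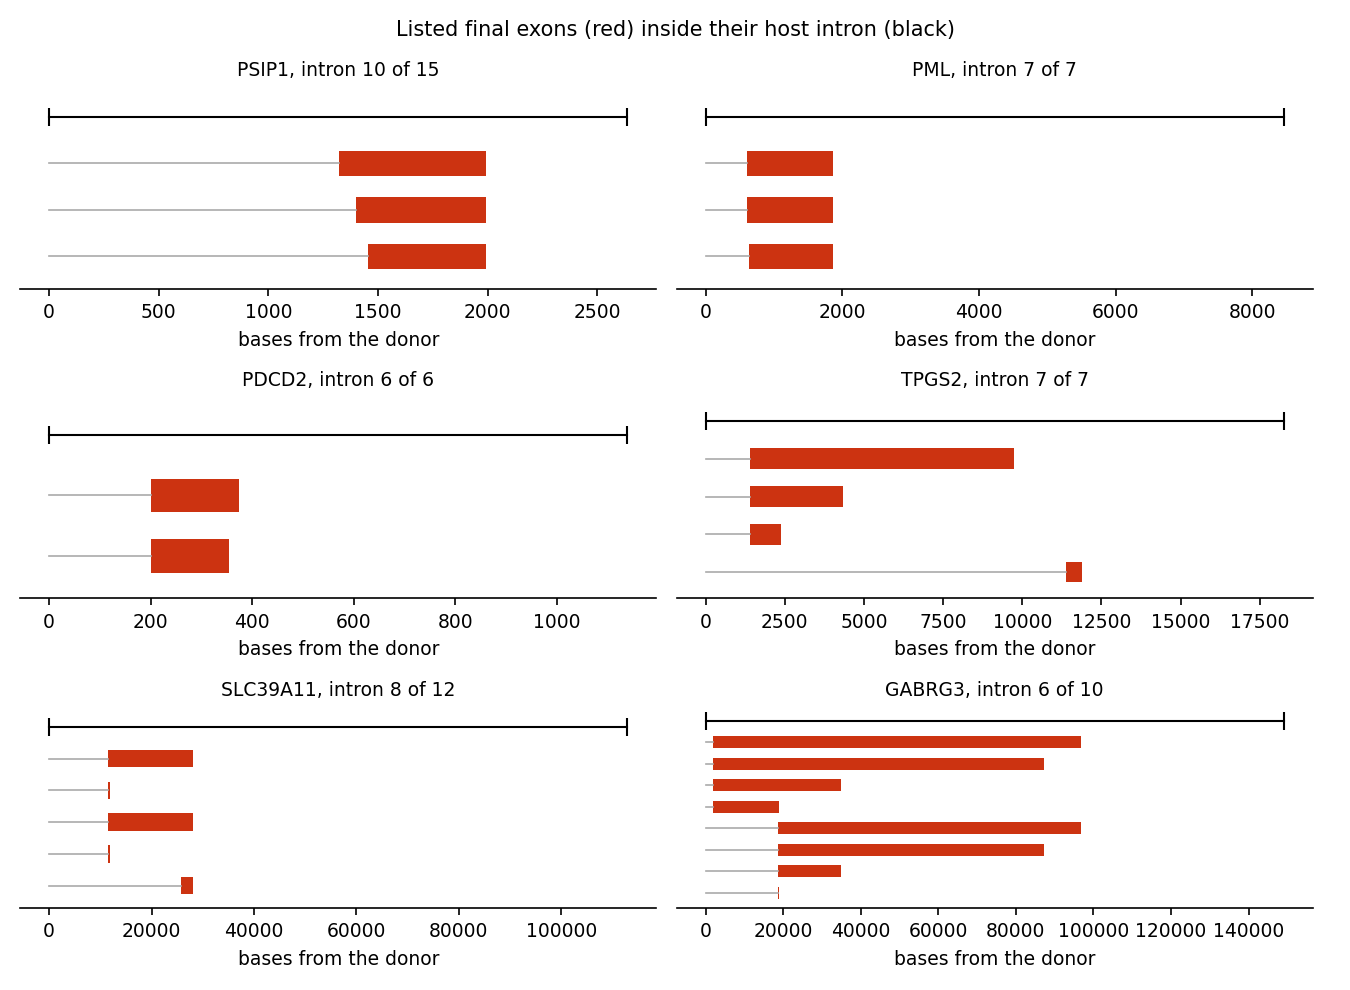
Listed final exons (red bars) of PSIP1, PML, PDCD2, TPGS2, SLC39A11 and GABRG3, drawn to scale within the host intron (black line) in bases from the donor, with the spliced part as a grey line. PSIP1 and PML had 3 acceptors with 1 end, TPGS2 mainly 1 acceptor with several ends, and GABRG3 all 8 combinations of 2 acceptors and 4 ends. For PDCD2 only intron 6 is drawn.

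Where an intron had several acceptors, some were very close and others far apart. Of 46 neighbouring pairs, the median spacing was 55 bases (quartiles 6 and 550.75, range 2 to 16712). In 13 pairs the acceptors were within 6 bases, and in 10 they were over 1000 bases apart. Exactly 3 bases separated 4 pairs and exactly 4 bases separated 5. In PRKACB the acceptors were 1673 and 1676 bases from the donor of the 11347-base intron 8. The tails below show what that shift does to the reading frame, with capitals as before.
PRKACB, nearer acceptor: attgtttctggaaagCAGAACTTTTGA
PRKACB, acceptor 3 bases on: attgtttctggaaagAACTTTTGA
The capitals hold 9 and 6 coding bases before the same stop codon, so the frame was kept. The matched reference proteins had 264 and 257 residues, a difference that comes also from other exons. In ING3 the acceptors were likewise 3 bases apart, at 535 and 538 bases.

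PML, a tumour suppressor that forms nuclear bodies and whose forms differ at the C-terminal end, had acceptors at 601, 612 and 641 bases with a shared end. The exons were 1262, 1251 and 1222 bases long. The first, matched to a reference transcript with a shorter last exon, held 213 coding bases in a protein of 641 residues, and the last held 777 coding bases in a protein of 829 residues. The last value was the highest among the exons with a stop codon. PML was named after its values were seen.

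Most of the exons in matched genes were also known to the reference annotation. Of 386, 367 lay in genes that could be matched to GENCODE v29 by name or by a RefSeq synonym. For 245 of these the last intron, together with the exon before it, had the lengths of the last intron and preceding exon of a reference transcript (66.8%, interval 61.8 to 71.4). The same share was 58.8% for extending ends (1309 of 2228) and 63.7% for reference last exons (7636 of 11986). Among the matches found by these lengths, the reference separates the kinds in the same way. Of the 245, 231 matched last exons only, whereas 1207 of 1309 extending ends matched both last and internal exons. Reference transcripts that reach the same exon from another upstream exon or donor were not searched. The kinds were defined by this same trait in the file. Whether its exons were drawn from an earlier annotation was not checked, so this is not separate support. Of the 245, 189 had a length within 10 bases of the reference exon (77.1%, interval 71.5 to 82.0), and 87 had the same length. Equal lengths divided by strand. On the plus strand 83 of 127 matched members equalled the reference exon, and on the minus strand 4 of 118 did while 74 were 1 base shorter. The matched transcripts were 216 protein-coding, 15 processed transcripts, 11 nonsense-mediated decay transcripts and 3 of other types. The genes were 262 protein-coding, 4 lincRNA and 1 processed transcript among the 267 matched.

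Among matched exons that could be read, listed ends carried the polyadenylation signal about as often in members as in reference isoforms. The last 50 bases could be read up to the listed end for 192 of the 386 members. These 192 matched a reference last exon that reached at least to the listed end. Listed ends of the other members were not read, so the shares hold only for exons already in the reference annotation. AATAAA, searched on the transcript strand, was present in 123 (64.1%, interval 57.1 to 70.5). It was present in 62.4% of reference last exons read in the same way (3750 of 6005) and in 54.0% of extending ends (552 of 1022, interval 50.9 to 57.0). Members that share an end count more than once. With the variant ATTAAA also accepted, the shares were 79.7%, 77.2% and 70.5%. The hexamer began a median of 22 bases before the end in members (quartiles 20 and 26) and 23 in both other kinds. In the window from 51 to 100 bases before the end, AATAAA was present in 3.74% of 187 members of 100 bases or more, in 3.79% of reference last exons and in 4.21% of extending ends. Base composition was similar, with a median GC content of 41.7% in members, 43.9% in reference last exons and 40.4% in extending ends.

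**Figure D4:**
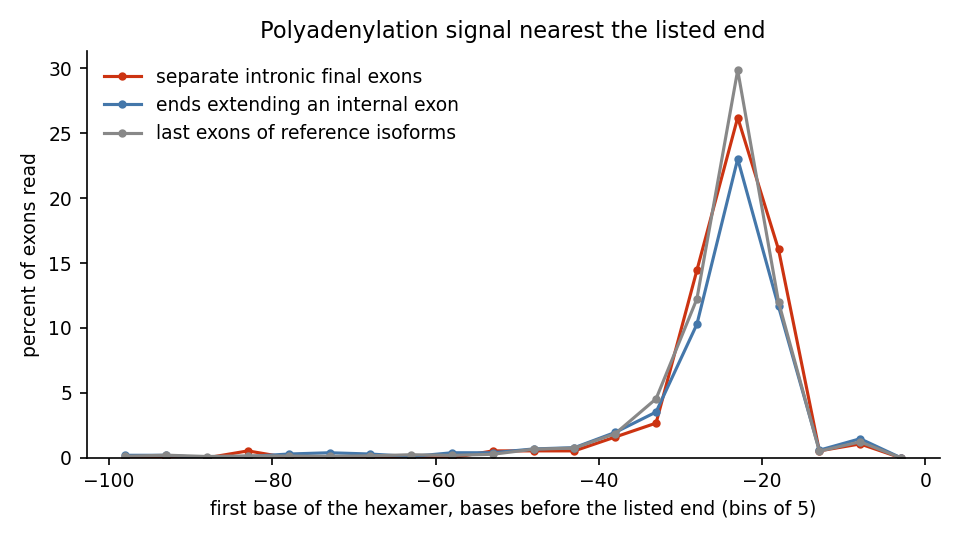
Position of the AATAAA hexamer nearest the listed end, in bins of 5 bases, as percent of exons of 100 bases or more that were read (187 separate intronic final exons, red, 1021 ends extending an internal exon, blue, 5852 reference last exons, grey). The x axis gives bases before the listed end. All 3 curves peak between 21 and 25 bases before the end and are close to 0 beyond 50 bases.

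The windows below show the hexamer in capitals with 10 bases on each side, for 6 exons picked among those that have it, to show where it lies. The other 69 of the 192 members read to their end had no AATAAA in the last 50 bases, so these windows do not stand for all members. The hexamer started 22 bases before the listed end in HGF and 21 in CWC27.
HGF: ctgaatttacAATAAAaactattttt
RUNX1: ttcaatacttAATAAAtggtcaatgt
PSIP1: aaaattttaaAATAAAgtttttttta
SON: tgtatcttttAATAAAcagtttactt
CWC27: acaaaaaatgAATAAAttcttctttg
EHMT1: agccccggtaAATAAAttgcattcag
The distances were 30 bases in RUNX1, 24 in PSIP1 and in SON, and 22 in EHMT1. They were larger in other exons of named genes, with 32 bases in TFPI, 36 in the 405-base exon of PPP2R5C and 37 in the 214-base exon of LAMA4.

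Most exons that could be read as coding ended the protein themselves. Of 170 members matched to a protein-coding reference transcript with an annotated start and stop codon, 161 held the whole stop codon (94.7%, interval 90.2 to 97.2), in 127 genes. Where several such transcripts matched, one with its stop codon whole in the last exon was preferred. The share is therefore partly set by that choice. These 161 exons contributed a median of 66 coding bases before the stop codon (quartiles 23 and 130, range 0 to 777). In 53 exons the coding part was 30 bases or fewer, and in 6 it was 300 or more. The annotated protein had a median of 62.0% of the residues of the gene's longest protein (quartiles 27.6 and 94.0). It was under 50% in 64 exons and 90% or more in 43. These values describe the matched reference transcripts. A listed isoform held the whole coding part of the matched transcript, by exon and intron lengths, for 80 of the 161 (49.7%). In these 80 the median was 54.0% (quartiles 18.1 and 90.2), with 39 under 50% and 20 at 90% or more. Start codons further upstream in the listed isoforms were not sought.

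In 24 exons of 21 genes the matched protein was as long as the longest of the gene. For 12 of them, in 10 genes, a listed isoform held the whole coding part, and the label of an early end did not hold for these 12 at the protein level. The 24 included TGFB1, the gene of a secreted growth factor, NPC1, which encodes a lysosomal cholesterol transporter, BACH1, TPGS2 and DNM2. In TGFB1 the exon lay in the last intron, 5 of 5, and both the matched and the longest protein had 390 residues, but no isoform listed with this end held that whole coding part. The TGFB1 isoform with the most exons in the file ran on to a further last exon of 8238 bases. In BACH1 a listed isoform did hold the whole coding part, whereas in NPC1 and DNM2 none listed with the exon did. The 5 were named after their values were seen, except TPGS2.

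**Figure D5:**
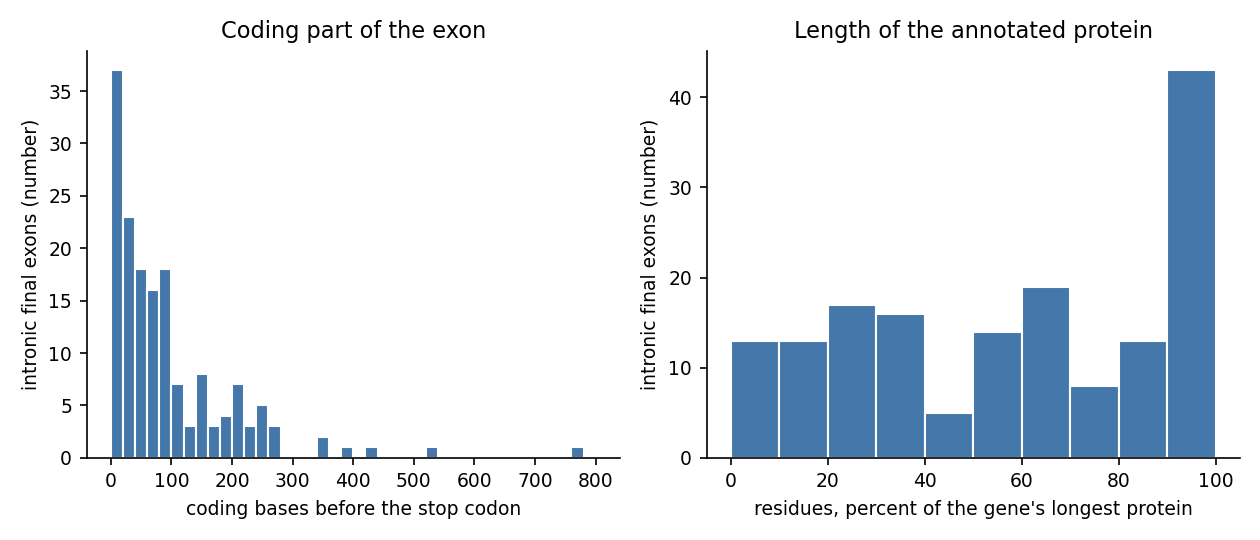
Left, number of the 161 exons holding a whole stop codon by coding bases before it, in bins of 20 bases. Right, the same exons by residues of the matched reference protein as percent of the gene's longest protein, in bins of 10%. Short coding parts prevail on the left, and on the right the highest bar, with 43 exons, is that from 90 to 100%.

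Among genes of chromatin, 3 of 67 modifiers with introns held a member (EHMT1, ING3 and NSD1), or 4.48% against 2.26% of all genes (interval 1.53 to 12.4). EHMT1, a histone H3 lysine 9 methyltransferase whose catalytic SET domain lies near its C-terminal end, had an exon of 288 bases in intron 15 of 26. The matched protein had 808 residues, against 1298, and no isoform listed with this exon held its whole coding part. NSD1, a histone H3 lysine 36 methyltransferase, had an exon of 532 bases 842 bases into the 55853-base intron 3, and the matched protein had 67 residues against 2696. In ING3 the matched protein had 92 residues against 418. Among DNA repair genes, 3 of 66 held a member (4.55%, interval 1.56 to 12.5). ERCC2, a helicase of transcription factor IIH, ended at 405 residues against 760. MRE11A, the nuclease of the double-strand break repair complex, ended at 221 against 711. PMS1, a mismatch repair homologue, ended at 165 against 932.

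The tails of MRE11A, EHMT1 and NSD1 are printed to show how little or how much coding sequence such an exon can add, with the preceding exon in lower case and the coding part through the stop codon in capitals.
MRE11A: gattcatcagaacagGGTATAG
EHMT1: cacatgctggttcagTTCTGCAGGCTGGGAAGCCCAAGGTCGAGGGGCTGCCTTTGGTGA
NSD1: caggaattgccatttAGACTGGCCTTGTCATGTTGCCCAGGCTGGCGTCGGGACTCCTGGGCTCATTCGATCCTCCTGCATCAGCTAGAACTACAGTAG
They hold 4, 42 and 81 coding bases before the stop codon, in exons of 403, 288 and 532 bases. Most of each exon therefore follows the stop codon.

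Other lists held few members, each beside the 2.26% of all genes. Extracellular matrix and adhesion had 3 of 51 genes (5.88%, interval 2.02 to 15.9). LAMA4, a laminin chain, had 2 exons, and the one in intron 2 of 37 had a matched protein of 129 residues against 1823. NCAM1, the neural cell adhesion molecule, had an exon of 2352 bases in intron 15 of 17 with 77 coding bases, and its protein had 726 residues against 884. ADAMTSL1, a secreted matrix protein gene, had exons of 904 and 917 bases with acceptors 13 bases apart, neither of them matched to a reference last exon by length. Mitosis and cell cycle had 2 of 72, CENPN and NCAPD3, a condensin subunit gene with a 384-base exon in intron 2 of 34. The matched reference exon of NCAPD3 had only 36 bases.

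Among SR and SR-related splicing proteins 1 of 35 held a member, SON, a large nuclear speckle protein. Its exon of 791 bases began 101 bases after the donor of intron 8 and held 252 coding bases. The matched protein had 2303 residues, against 2426. The spliceosome list had 1 of 45, CWC27, a spliceosomal cyclophilin, with an exon of 964 bases and 381 residues against 472. The RAS, MAPK and PI3K list had 1 of 50, PPP2R5C, which encodes a B56 regulatory subunit of the phosphatase PP2A, with exons of 1896 bases in intron 2 and 405 bases in intron 5. Their proteins had 68 and 124 residues, against 555.

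In 11 of the 19 lists no gene held a member. They included 70 cytosolic ribosomal protein genes, 54 oxidative phosphorylation genes and 26 receptor tyrosine kinases. Also among them were 19 other cytokine and growth factor receptors, 25 arginine methyltransferase and methylosome genes, and 20 cleavage and polyadenylation factors. The marker lists of neurons, oligodendrocytes, myeloid and endothelial cells had only 7, 2, 2 and 3 genes with introns. The narrowest interval of the 11 lists, that of the ribosomal protein genes, was 0 to 5.20%. It held the 2.26% of all genes, as did the intervals of the others. Over all 19 lists 15 of 652 genes held a member (2.30%), which is close to the 2.26% of all genes.

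The next genes are outside the lists and were picked after their values were seen, so they are examples and stand for no group. ADAM12, a membrane metalloprotease with a known secreted form, had an exon in intron 18 of 22 with 101 coding bases and a protein of 738 residues, against 909. NRP2, a co-receptor for semaphorins and vascular growth factors, had an exon of 912 bases with 278 coding bases, 901 residues against 931. ANTXR1, a membrane receptor of matrix proteins, had an exon with 15 coding bases, 368 residues against 564. The paralogues PDLIM5 and PDLIM7, which link signalling proteins to actin through PDZ and LIM domains, both had an intronic final exon in intron 8 of 13.
PDLIM5: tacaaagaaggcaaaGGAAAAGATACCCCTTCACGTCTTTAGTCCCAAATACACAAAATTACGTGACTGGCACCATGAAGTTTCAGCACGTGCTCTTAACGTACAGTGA
PDLIM7: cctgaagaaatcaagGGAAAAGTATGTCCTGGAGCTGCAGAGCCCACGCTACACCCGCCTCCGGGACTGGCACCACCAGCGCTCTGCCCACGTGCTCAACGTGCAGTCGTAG
The capitals give 91 and 94 coding bases and the stop codons, and 57 of 99 aligned columns were identical (57.6%). The exon lay 544 bases from the donor in PDLIM5, in an intron of 31559 bases, and 276 bases in PDLIM7, in an intron of 1037 bases. The reference proteins had 234 residues against 625, and 222 against 457.

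Several textbook genes of alternative last exons were not members. Of 22 genes on that list, 1 was a host (4.55%, interval 0.807 to 21.8), beside 2.26% of all genes. It was ANK3, which encodes ankyrin-G. Its 204-base exon lay in intron 24 of 42 but matched a short reference model of 63 residues, against 4377 for the longest protein. In 12 of the 22, a final exon shared its acceptor with an internal exon, which the rule excludes. In CDC42, a small GTPase with alternative C-terminal tails, the exon at chr1:22416436-22417297 (862 bases) was listed both as a last exon and as an internal exon of a longer isoform. In all genes, 157 last exons equalled an internal exon at both edges. This count leaves out last exons that start at the acceptor of the reference isoform's last exon. TMPO, a nuclear lamina protein gene, had 1 such exon too.

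Of 14 genes named regardless of their values, 0 held a member, beside 2.26% of all genes with introns. At so low a share, 0 of 14 shows nothing particular to these genes. PRMT5, WDR77, MET, CDK12 and CDK13 had 1 last-exon acceptor each. CLNS1A, TPM1, PCF11, CSTF3 and RBBP6 had 2, CDC42 and TMPO 3, and EGFR and TPM3 4. In EGFR, the receptor of epidermal growth factor, 3 last exons started at the acceptor of an internal exon.

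Exons of other genes overlapped 33 members. On the opposite strand 32 members in 24 genes overlapped a listed exon of another gene, and on the same strand 1 did. Whether the assembly used strand was not stated in the labels.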

How the data were processed

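The data were exon positions from 1 annotation built from 6 libraries of poly(A)-selected RNA. Per the deposited rows, the file has 9 columns, and the authors give a start and an end position in hg19 for each exon. Tools named in the submitters' processing notes are RSEM, Bowtie 1.0.1, STAR 2.4.1d, DESeq 1.10.1 and bedtools 2.20.1, whose roles are not given in the sources used here. Expression tables were not analysed here, so no test was made, and depth is unknown.

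The 382567 exon rows were split into 31659 isoforms, 76 rows with an end before their start were dropped, and at 10093 overlaps of neighbouring exons the later was kept. Names were matched to GENCODE 29 (GRCh38) by name (12493) or RefSeq synonym (553), on the same chromosome and strand, and exons by length, never by position. Of the 245 matched members, 241 lay at their gene's most common offset from the reference. Sequences come from GENCODE transcripts. An hg19 genome was not used here, so intron sequences at the acceptors are not printed.

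The members and lists were chosen with earlier results of these data known. Named were the 10 genes with most members (B9D1 and C14orf159 are the first by name of 14 genes tied at 3), up to 3 hosts per list, the 3 shortest and longest exons and host introns, and 14 fixed genes. Intervals are 95% Wilson intervals. Python 3.11.15, numpy 2.4.6 and scipy 1.17.1 were used. The rule was tested on simulated data of 200 genes, where 50 of 50 planted exons were recovered with 0 false ones.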

Additional observations from a re-analysis of the deposited data

How the results depend on the processing

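Of 54 alternatives, 50 left their result within its interval, or within 1.5 times for the count, and 4 moved it. Some of the 50 could not move it. Taking 1 exon per acceptor or 1 member per gene always leaves the share of genes at 2.26%. With 1 member per gene the count is simply that of the 282 host genes. When the exon could lie in an intron of any isoform, the share of genes rose from 2.26% to 2.54% and the median place from 0.179 to 0.218, with 432 members in place of 386, since more introns qualify. Matching on the length of the last intron alone raised the matched share from 66.8% to 72.8%. Accepting ATTAAA beside AATAAA raised the share with a signal from 64.1% to 79.7%. Both follow from a looser criterion. Keeping the earlier of overlapping exons gave 359 members, and taking 1 exon per acceptor gave 335. Leaving out GABRG3, taking the shortest exon per acceptor, and reading to the reference transcript's end (58.2% with AATAAA) were chosen after seeing the data. No paired analysis was possible because values per library were not part of the annotation, and for the same reason no replicate could be left out.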
